A study of Homo sapiens with 16 samples.

Results

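HLA class I antigen presentation was followed in SUM225 cells through the genes of the molecules that carry peptides to the cell surface: the heavy chains HLA-B, HLA-C, HLA-E and HLA-F, the light chain B2M, the peptide transporter subunits TAP1 and TAP2, and the loading chaperone TAPBP. The genes were taken by symbol, and all of their probes in the table of signals were described. Of the 8 genes, 7 had a probe, and HLA-B was not analysed here. These 7 genes had 10 probes of the 24526 in the table, which holds 18631 symbols. SUM225 is a breast cancer cell line, a single line, in which HER-2 is amplified and over expressed. Cells grew in Ham's F-12 medium with 5% serum, 5 µg/ml insulin and 1 µg/ml hydrocortisone per the labels, whereas the methods name a medium without serum or insulin for this line, so which medium these cultures had is not settled. The labels give 1 µM CP724,714, a small molecule inhibitor of the HER-2 kinase, as the treatment of all 16 samples, that of 0 h included. Parallel cultures were collected every 3 h to 45 h, with 1 array for each of 16 time points and no replicates, and no untreated course was analysed here.

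Class I molecules display peptides cut from proteins of the cell's own cytosol to T cells and natural killer cells. Peptides made by the proteasome are pumped into the endoplasmic reticulum by the transporter formed of TAP1 and TAP2, tapasin (TAPBP) holds the empty heavy chain at the transporter, and the heavy chain leaves with B2M and a peptide. Interferons are known to raise the genes of this route together, through transcription factors that bind the interferon-stimulated response element, and through the coactivator NLRC5.

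Of these genes, the RefSeq annotation of build GRCh38.p14 places HLA-F at chr6:29723434-29738532, HLA-E at chr6:30489509-30494194 and HLA-C at chr6:31268749-31272092. TAP2 lies at chr6:32821831-32838739, TAP1 at chr6:32845209-32853704 and TAPBP at chr6:33299694-33314078, all in the major histocompatibility complex, while B2M lies apart at chr15:44711517-44718145. The 250 bases before the start of HLA-C, HLA-F, B2M, TAP1, TAP2 and TAPBP were searched for motifs, and HLA-E was not searched. In all of these but HLA-C they hold the core of the interferon-stimulated response element, which is GAAA, any 2 bases and GAAA again, read on either strand, and which 3.02% of 35116 RefSeq promoters held in a window of the same length. These stretches are shown because interferon-stimulated genes move beside some of the probes below. Each runs 5′ to 3′ along the strand of its gene in the reference assembly, not in the cell line, and capitals mark the core, where capitals that read TTTC hold it on the opposite strand.
HLA-F: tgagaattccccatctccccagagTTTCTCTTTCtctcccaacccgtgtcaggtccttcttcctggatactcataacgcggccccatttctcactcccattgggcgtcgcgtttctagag
B2M: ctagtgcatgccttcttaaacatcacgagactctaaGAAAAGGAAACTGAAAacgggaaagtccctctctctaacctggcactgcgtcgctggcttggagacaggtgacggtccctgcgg
TAP1: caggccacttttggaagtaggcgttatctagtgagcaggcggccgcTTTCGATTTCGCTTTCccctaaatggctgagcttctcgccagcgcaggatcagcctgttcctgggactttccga
TAP2: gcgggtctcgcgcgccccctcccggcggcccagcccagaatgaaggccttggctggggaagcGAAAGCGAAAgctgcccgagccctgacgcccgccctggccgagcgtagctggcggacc
TAPBP: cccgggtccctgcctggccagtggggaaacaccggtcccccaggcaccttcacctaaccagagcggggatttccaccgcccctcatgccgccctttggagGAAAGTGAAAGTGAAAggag
The stretch of HLA-F is chr6:29723254-29723373 on the plus strand, that of B2M is chr15:44711337-44711456 on the plus strand, that of TAP1 is chr6:32853765-32853884 on the minus strand, that of TAP2 is chr6:32838740-32838859 on the minus strand, and that of TAPBP is chr6:33314079-33314198 on the minus strand. The cores of B2M, TAP1 and TAPBP each hold 2 overlapping matches. CCAAT, which 32.0% of promoters held, was found in HLA-C, HLA-F, B2M and TAP1, and TGACGC, which 7.67% held, in HLA-C and TAP2. None of HLA-C, HLA-F, B2M, TAP1, TAP2 and TAPBP held TGACGTCA, which 1.65% held, or either of the NF-kB sites searched, as in the class I enhancer A (0.0683% and 0.037%), in this window on either strand. A match is a description of letters and no sign that a factor was bound.

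Array medians of the signal intensity lay between 242 and 384, and 14110 to 15073 probes were detected. All of the 7 epithelial markers looked for (KRT8, KRT18, KRT19, EPCAM, CDH1, ERBB2, GRB7) were detected on all 16 arrays, with a summed signal of 210468 to 278304. By their brightest probes, 2 of the 7 fell over 45 h and 0 rose. KRT18 was among those that fell (-0.74 log2 units), while its second probe (-0.07) did not pass. The brightest probes of ERBB2 and GRB7 reached 99.4% and 98% of the brightest signal, where the scale limits any rise. A dimmer ERBB2 probe, ILMN_1728761, detected on 16 arrays, did rise (0.44), and ILMN_1717902, detected on 12, did not pass (0.06). Of 10 leukocyte markers, PTPRC and NKG7 were detected on 0 arrays and CD3D and CD3E on 1, with a summed signal of 4129 to 7547, while CD14, CD68, LYZ and MS4A1 were detected on all 16. Of the 5 leukocyte markers tested, CD14 and CD68 rose (0.34 and 0.38 log2 units over 45 h) and none fell, and LYZ (0.00), MS4A1 (-0.32) and CD79A (-0.16) did not pass. The second probes of CD14 (0.27) and CD68 (0.64, detected on 6 arrays) did not pass. The MS4A1 probe that was detected had a signal of at most 387, and its other probes, ILMN_1697830 and ILMN_1776939, were detected on 0 arrays. Of 7 fibroblast markers, 5 were detected on 0 arrays. The part of these markers in the results was not tested. In such bulk RNA, fewer cells that express a gene and less of its RNA per cell cannot be told apart.

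The question was how the signal of each probe moved with time in the inhibitor. Changes are given on the normalized log2 scale as the linear change over 45 h with its standard error (SE), from a cubic course fitted in limma to the 16 arrays. Adjusted p-values were taken over the 16110 probes tested. They measure only the deviations around the fitted course. A linear trend was found for 5 of the 9 probes tested, beside 47.7% of all probes tested. HLA-E, B2M and 2 of the 3 TAPBP probes rose, beside 26.0% of all probes, and 1 of the 2 TAP2 probes fell, beside 21.7%. The median change over all probes tested was 0.05 log2 units. Any dependence on time was found for 7 of the 9 probes, beside 51.3% of all, and a departure from a straight line for 4 of the 9, beside 19.3%. Those 4 were HLA-F, TAP1, the TAP2 probe that fell, and the brightest TAPBP probe.

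**Figure D1:**
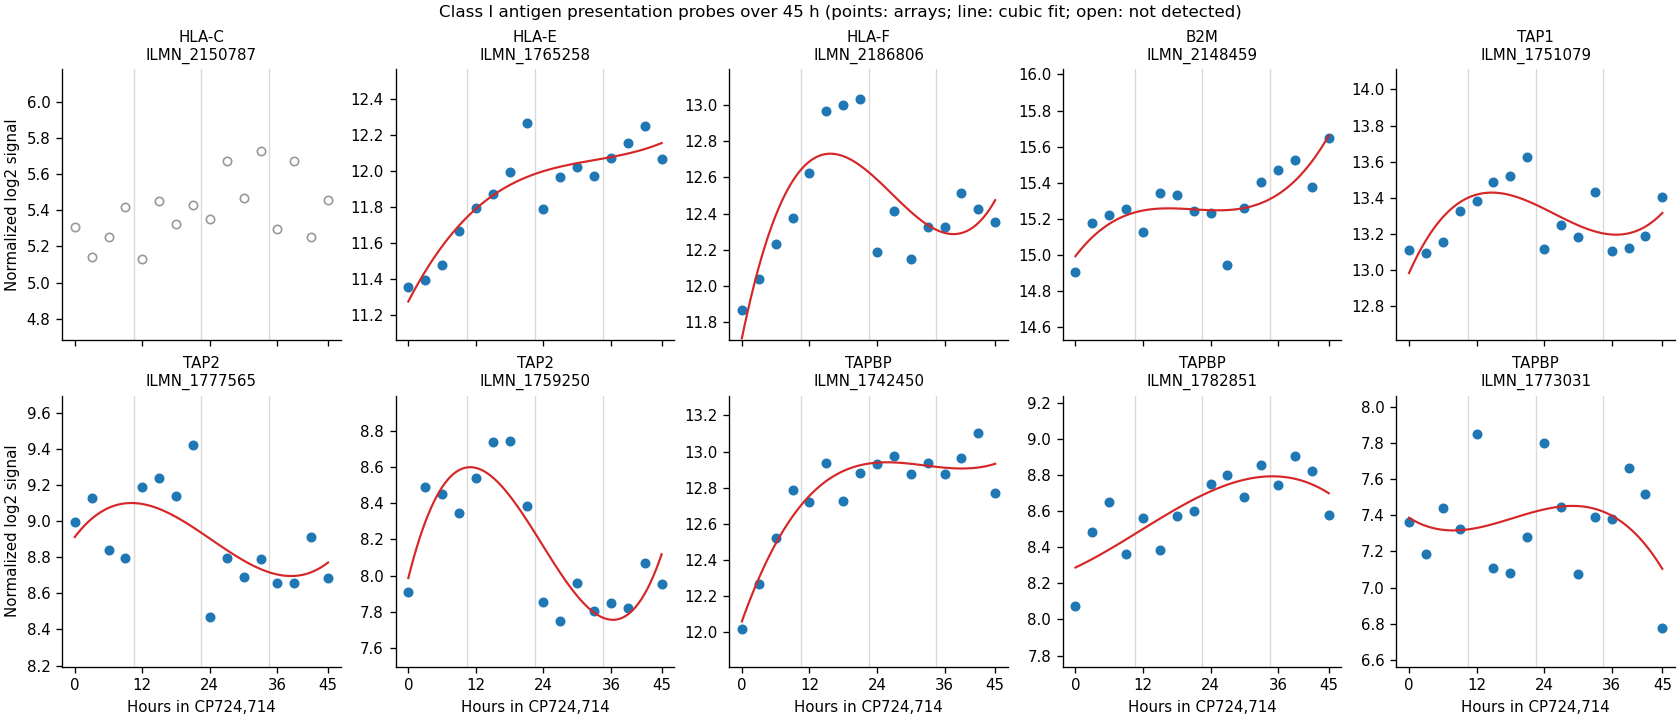
Normalized log2 signal of the 10 probes against hours in CP724,714, with 1 point per array, the cubic course as a line, grey lines between sets of 4 arrays and axes that all span 1.5 log2 units. HLA-E, HLA-F, TAP1 and both TAP2 probes had their highest array at 18 or 21 h. From 24 h on HLA-E stayed above its arrays of 0 to 9 h, and the first TAPBP probe climbed early and stayed high.

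The arrays fell into 4 sets of 4 consecutive time points (0 to 9, 12 to 21, 24 to 33 and 36 to 45 h), which were noticed in earlier results of these data. The labels name no batch, and each window of time is 1 of these sets, so time window and set cannot be told apart. When the set entered as a factor beside a straight line, 0.900% of all probes had a trend. The change in that fit is the common slope within the sets, scaled to 45 h, and leaves out the steps between sets. It is not a change seen over the course, and it is given beside the trends of the class I probes and for the partner genes named. Of the partner genes described further on, 57 had a trend in the cubic course and 12 in that fit.

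HLA-E is a class I molecule of few variants that presents leader peptides of other class I chains to natural killer cells. Its log2 signal was 11.36 at the lowest, 11.97 at the median and 12.26 at the highest of the 16 arrays. The lowest value was that of the 0 h array and the highest that of the 21 h array, and all 4 arrays of 36 to 45 h lay above all 4 of 0 to 9 h, as for 19.7% of all probes. HLA-E rose by 0.75 ± 0.10 log2 units over 45 h (SE; adjusted p = 6.84e-06, limma), which is 1.69-fold with a 95% confidence interval of 0.53 to 0.97 log2 units. The climb was mostly early. The mean was 11.48 ± 0.14 (SD, n = 4) at 0 to 9 h, 11.98 ± 0.20 at 12 to 21 h, 11.94 ± 0.10 at 24 to 33 h and 12.13 ± 0.09 at 36 to 45 h. With the set as a factor the change was 1.20 (adjusted p = 0.131, limma).

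HLA-F, a class I chain that is found at the surface also without peptide and binds receptors of natural killer cells, followed another course. Its log2 signal was 11.86 at the lowest, 12.36 at the median and 13.03 at the highest array, which is a 2.25-fold range. It was lowest at 0 h, went up on each array to 13.03 at 21 h and stood at 12.19 at 24 h, and every later array lay below those of 15, 18 and 21 h. Its linear change was 0.14 ± 0.16 (adjusted p = 0.526, limma; 95% confidence interval -0.21 to 0.48), while it depended on time (adjusted p = 0.00305) and departed from a straight line (adjusted p = 0.00622). When a step after 21 h was added to the course, the linear term, scaled to 45 h, was 1.57 ± 0.22 (adjusted p = 5.59e-05, limma). The step lies at the drop from 21 h to 24 h and takes it out of that term. The value is therefore not a change seen over the course, whose arrays ran only from 11.86 to 13.03. In the deposited, unnormalized signal, the array of 24 h gave 4622 and that of 21 h gave 11406, and the whole 24 h array was dimmer, with a median of 276 against 361. HLA-E and HLA-F started from their lowest array together, and both were highest at 21 h. From 21 h to 24 h HLA-E changed by -0.48 and HLA-F by -0.84 log2 units, and their later courses parted.

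The single HLA-C probe (ILMN_2150787) was detected on 0 of 16 arrays, with a signal of 168 at the lowest, 198 at the median and 265 at the highest array. No level or change is therefore given for HLA-C, which presents peptides to T cells and binds receptors of natural killer cells. One probe speaks only for the stretch it matches, and class I genes are closely similar and vary between people, so the signals of their probes may include or miss near copies. The probe sequences were not used here.

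B2M, the invariant light chain shared by all classical and several non-classical class I molecules, gave one of the brightest signals of the arrays. Its signal was 29498 at the lowest, 40040 at the median and 51757 at the highest array, which is 40.4% to 72.1% of the brightest probe of the same array. It was the only one of the 10 probes that reached 50%, the level set here for a probe near the top of the scale, so its fold changes are limited by the scale. The log2 signal was 14.91 at 0 h, the lowest array, 15.26 at the median and 15.65 at 45 h, the highest, and the arrays of 36 to 45 h all lay above those of 0 to 9 h. B2M rose by 0.43 ± 0.09 log2 units (adjusted p = 0.000787, limma), which is 1.35-fold. After 0 h the lowest value was 14.95 at 27 h. The deposited signal had another order, with 51757 at 21 h, the highest, 45303 at 27 h and 39998 at 45 h. The 27 h array had 463 probes at 50% of its brightest or more, the most of any, and the 45 h array had 207, the fewest. The part of these numbers in the course of B2M was not tested. With median scaling the change was 0.30 (adjusted p = 0.0451, limma), and with the set as a factor 1.00 (adjusted p = 0.205).

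**Figure D2:**
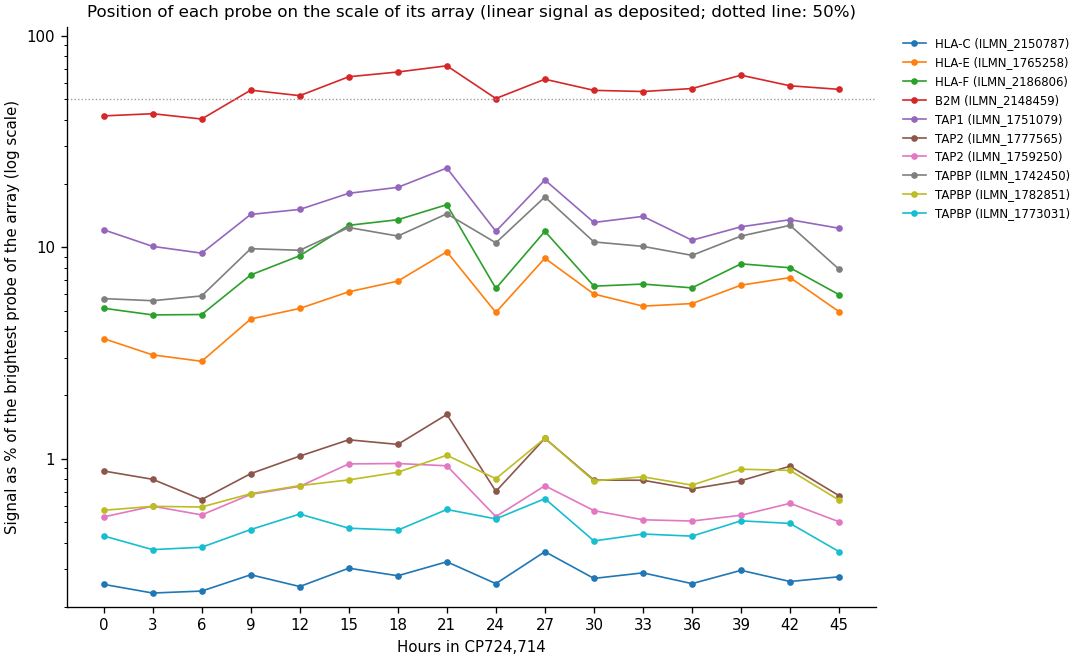
Signal as deposited, as a percent of the brightest probe of the same array, against hours in CP724,714 on a log axis, with 1 line per probe and 50% dotted. B2M ran between 40.4% and 72.1%, and the other 9 probes stayed at or under 23.7%.

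TAP1 and TAP2 form the pump that moves peptides into the endoplasmic reticulum. The log2 signal of TAP1 was 13.10 at the lowest, 13.22 at the median and 13.62 at the highest array. It was highest at 21 h, 1.44-fold above its lowest array at 3 h, and the 4 arrays of 36 to 45 h overlapped with those of 0 to 9 h. No linear change was found for TAP1 (0.01 ± 0.11, adjusted p = 0.922, limma; 95% confidence interval -0.21 to 0.24), while its departure from a straight line passed the test (adjusted p = 0.0494). With the set as a factor TAP1 had a positive slope within the sets, 1.24 ± 0.28 when scaled to 45 h (adjusted p = 0.0407, limma). It was the only 1 of the 9 probes with a trend in that fit. With a step after 21 h its linear term, scaled to 45 h, was 0.67 ± 0.22 (adjusted p = 0.0382, limma), again not a change seen over the course.

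TAP2 had 2 probes of lower signal. The log2 signal of the brighter, ILMN_1777565, was 8.47 at the lowest, 8.82 at the median and 9.42 at the highest array, and that of ILMN_1759250 was 7.75, 8.01 and 8.74. From 24 h on, every array of either probe lay below all of its arrays of 12 to 21 h. The linear change of ILMN_1759250 over 45 h was -0.63 log2 units (SE 0.16, adjusted p = 0.00321, limma), a fold of 0.645. That is the linear term of a course that bent (adjusted p = 0.0136, limma), and no such fall from 0 h to 45 h was seen. The cubic course ran from 7.99 at 0 h to 8.12 at 45 h, and the arrays of those times gave 7.91 and 7.96. For ILMN_1777565 the change was -0.40 ± 0.18 (adjusted p = 0.0702). The sign of the ILMN_1759250 change turned when a step after 21 h was added to the course (0.30, adjusted p = 0.605) and with the set as a factor (0.55, adjusted p = 0.744). The 2 probes had a Pearson r of 0.753 over the 16 arrays.

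TAPBP, which encodes tapasin, had 3 probes that differed in brightness and course. The brightest, ILMN_1742450, had a log2 signal of 12.02 at the lowest, 12.87 at the median and 13.10 at the highest array. It was lowest at 0 h, reached 12.79 at 9 h and lay between 12.72 and 13.10 on every later array. It rose by 0.66 ± 0.09 log2 units (adjusted p = 5.31e-06, limma), 1.58-fold, with a departure from a straight line (adjusted p = 0.00209). ILMN_1782851 had a log2 signal of 8.07 at the lowest, 8.62 at the median and 8.90 at the highest array, and rose by 0.50 ± 0.13 (adjusted p = 0.0038). ILMN_1773031, the dimmest with 6.77, 7.37 and 7.85, had a change of -0.07 ± 0.22 (adjusted p = 0.817; 95% confidence interval -0.54 to 0.39). With the set as a factor the first pair gave 0.98 (adjusted p = 0.404) and 0.35 (adjusted p = 0.831).

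The changes of 7 pairs of probes were set against each other by a two-sided permutation test over the 16 arrays with 100000 resamples, adjusted over the 7 pairs. The test treats the arrays as exchangeable, although they follow each other in time and fall into sets, so its p-values may be too small. Within TAPBP, ILMN_1742450 and ILMN_1782851 each changed by more than ILMN_1773031, by 0.73 ± 0.24 and 0.57 ± 0.19 log2 units (permutation p = 0.00842 and 0.0101, adjusted p = 0.0236 for both). ILMN_1742450 and ILMN_1782851 differed by 0.16 (permutation p = 0.316). TAP1 changed by 0.42 ± 0.13 more than ILMN_1777565 of TAP2 (permutation p = 0.00872, adjusted p = 0.0236). The 2 TAP2 probes differed by 0.23 ± 0.18 (adjusted permutation p = 0.316), HLA-E and B2M by 0.32 ± 0.18 (0.154) and HLA-F and B2M by -0.29 ± 0.28 (0.316). None of the 3 differences past the threshold stayed past it without the 0 h array or without the 45 h array, and 1 did without the 3 h array.

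Adjacent windows of 4 arrays were also compared in limma, a contrast added after the values were seen. Between 0 to 9 h and 12 to 21 h, 5 of the 9 probes were higher, beside 15.9% of all probes tested, and none was lower, beside 13.9%. HLA-F was higher by 0.78 ± 0.11 (SE; adjusted p = 2.29e-05), HLA-E by 0.51 ± 0.10 (0.00067), TAPBP ILMN_1742450 by 0.42 ± 0.12 (0.0116), TAP1 by 0.33 ± 0.08 (0.00545) and TAP2 ILMN_1777565 by 0.31 ± 0.11 (0.0453). B2M gave 0.12 ± 0.09 (0.336) and the other TAP2 probe, ILMN_1759250, 0.30 ± 0.13 (0.0913). Between 12 to 21 h and 24 to 33 h, 3 of the 9 probes were lower, beside 3.38% of all probes, and none was higher, beside 4.22%. HLA-F fell by 0.64 (adjusted p = 0.000822), TAP2 ILMN_1759250 by 0.76 (0.00111) and TAP2 ILMN_1777565 by 0.56 (0.00364). TAP1 gave -0.26 ± 0.08 (0.0677) and HLA-E -0.04 ± 0.10 (0.858). HLA-F and TAP2 ILMN_1777565 passed both tests, up and then down, as 0.950% of all probes did. Between 24 to 33 h and 36 to 45 h no probe passed, beside 0.726% higher and 2.82% lower over all probes.

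**Figure D3:**
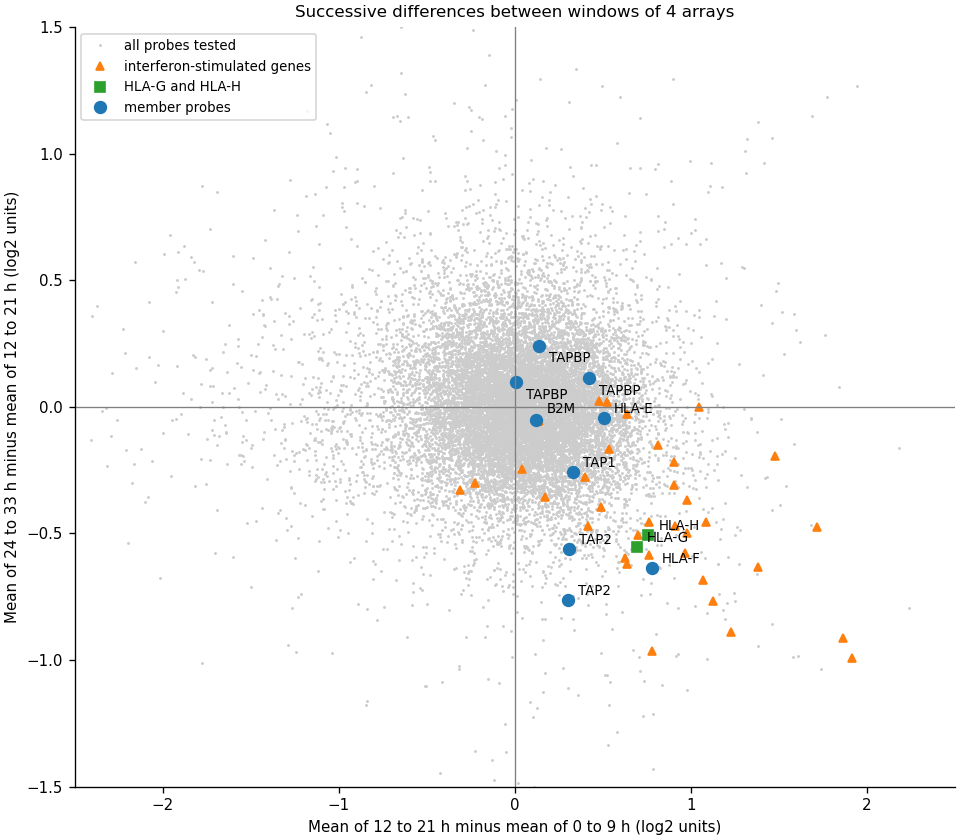
Mean log2 signal of 12 to 21 h minus that of 0 to 9 h on the horizontal axis, and of 24 to 33 h minus that of 12 to 21 h on the vertical axis, with 1 point per probe (probes outside the axes are not drawn). HLA-F (0.78 and -0.64) lay with HLA-G, HLA-H and many interferon-stimulated genes at the lower right, whereas HLA-E (0.51 and -0.04) and B2M (0.12 and -0.05) lay near the horizontal line.

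Over the 16 arrays, HLA-F and TAP1 had a Pearson r of 0.818 and HLA-E and TAPBP ILMN_1742450 one of 0.835, whereas HLA-E and HLA-F had 0.564, TAP1 and TAP2 ILMN_1777565 had 0.609, and B2M and TAP1 had 0.178. All values share the same arrays, and r is a description only. Among 12335 probes detected on all arrays, the 5 outside these genes with the course most like TAP1 were IFITM1 (r = 0.925), OAS1 (0.898), HERC5 (0.877), UBE2L6 (0.872) and UBP1 (0.859). For B2M they were TULP4 (0.911), AZGP1 (0.89), TRIM33 (0.886), BPNT1 (0.875) and SEMA4D (0.856), and for TAPBP ILMN_1742450 they were SLC24A1 (0.966), ZNF34 (0.963), LGP2 (0.957), KIAA0247 (0.956) and CALCOCO1 (0.956). IFITM1, OAS1, HERC5 and UBE2L6 are known as interferon-stimulated genes, and LGP2 as a cytosolic sensor of viral RNA.

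Genes that work beside these were taken from 7 lists, 120 genes in all, of which 119 were in the table and 106 were tested, each by its brightest probe. Their counts stand beside the 26.0% of all probes that rose and the 21.7% that fell. Of the 10 other class I and class I-like chains tested, 1 rose and 3 fell, with a median change of 0.10. HLA-G and the pseudogene HLA-H gave 0.10 ± 0.17 (adjusted p = 0.66, limma) and 0.11 ± 0.13 (0.506), and like HLA-F both were higher at 12 to 21 h and lower at 24 to 33 h. The HLA-H probe reached 51.2% of the brightest signal, so its folds are limited by the scale, and its signal may include near copies. MR1, which presents vitamin metabolites to mucosal T cells, rose by 1.28 ± 0.12 (5.51e-08), whereas MICA and MICB, stress ligands of the receptor NKG2D, fell by 0.94 (SE 0.12, 1.55e-06) and 2.28 (SE 0.24, 2.73e-07). With the set as a factor none of these passed: MR1 gave 1.38 (adjusted p = 0.327, limma), MICA -0.96 (0.383) and MICB -0.28 (0.943). The MICB probe was dim, with a signal of 668 at 0 h, 282 at the median and 233 at the lowest array.

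Of the 15 genes of peptide loading and trimming, 2 rose and 6 fell, with a median change of -0.20. The TAPBP-like gene TAPBPL, whose product edits peptides, rose by 0.92 ± 0.13 (adjusted p = 7.48e-06, limma) and PDIA3, a disulfide isomerase of the loading complex detected on 9 arrays, by 0.65 ± 0.23 (0.0269). The lectin chaperones CALR and CANX fell by 0.49 (SE 0.09, 0.000187) and 0.60 (SE 0.10, 4.86e-05). THOP1, a cytosolic peptidase that destroys peptides, fell by 2.08 (SE 0.19, 4.01e-08) and ERP27, a non-catalytic member of the disulfide isomerase family, by 1.03 (SE 0.21, 0.000386). The trimming peptidases of the endoplasmic reticulum ERAP1 and ERAP2 gave 0.05 ± 0.13 (0.79) and -0.33 ± 0.21 (0.216). In the fit with the set, CALR gave 0.02 (adjusted p = 0.986, limma), CANX -0.02 (0.988), TAPBPL 1.82 (0.12), PDIA3 0.77 (0.791), THOP1 -2.21 (0.0825) and ERP27 -0.75 (0.448), so none of these passed and CALR turned its sign.

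Of the 8 genes of the immunoproteasome, its activator and the standard subunits, 2 rose and 3 fell, with a median of -0.02. Among the inducible subunits, PSMB10 rose by 0.81 ± 0.11 (adjusted p = 3.34e-06, limma), with up to 54.8% of the brightest signal, and PSMB8 by 0.33 ± 0.09 (0.0043), though its 3 other probes gave 0.22, 0.21 and 0.21 and did not pass. PSMB9 gave -0.02 ± 0.14 (0.925). The standard subunits PSMB6 and PSMB7 fell by 0.62 (SE 0.08, 2.1e-06) and 0.46 (SE 0.08, 0.000125), and PSMB5 gave -0.02 ± 0.06 (0.856). When the set was a factor, PSMB10 gave 0.95 (adjusted p = 0.358, limma), PSMB8 1.23 (0.0559), PSMB6 -0.23 (0.825) and PSMB7 0.30 (0.772), so none of these passed and PSMB7 turned its sign.

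**Figure D4:**
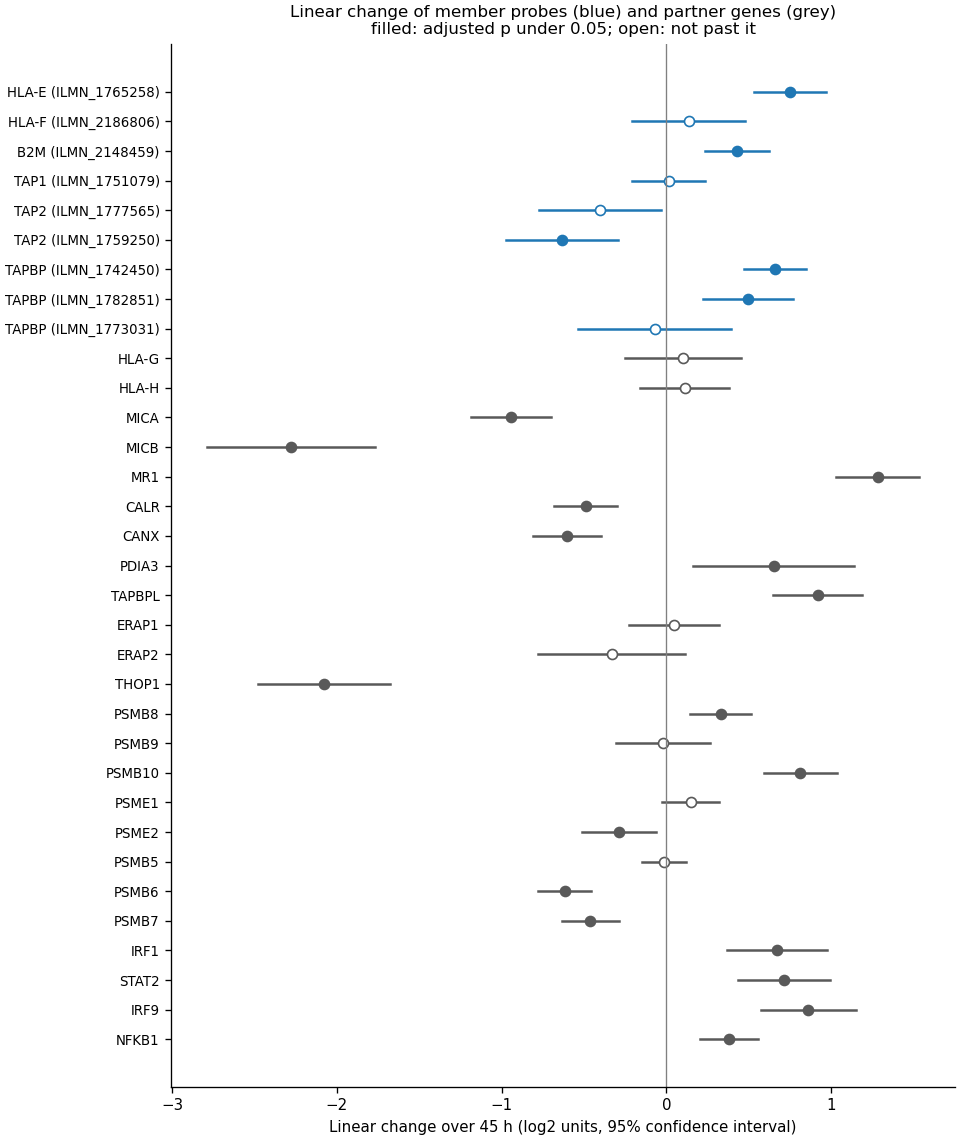
Linear change over 45 h in log2 units with its 95% confidence interval for the 9 probes tested (blue) and partner genes (grey), filled where the adjusted p was under 0.05. HLA-E (0.75), B2M (0.43) and the first TAPBP probes (0.66 and 0.50) lay to the right of 0, and CALR, CANX, MICA, MICB and THOP1 to the left.

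Of the 18 transcriptional regulators of class I tested, 7 rose and 2 fell, with a median of 0.22. IRF9 (ISGF3G in the table) rose by 0.86 ± 0.14 (adjusted p = 3.6e-05, limma), STAT2 by 0.71 ± 0.13 (0.00018) and IRF1 by 0.67 ± 0.14 (0.000742). IRF9 and STAT2 act together in the response to type I interferon. RELB, an NF-kB subunit, fell by 0.77 (SE 0.14, 0.000161). With the set as a factor IRF9 gave 1.51 (adjusted p = 0.248, limma), STAT2 1.01 (0.37), IRF1 0.07 (0.969) and RELB -0.56 (0.725), none past the threshold. The probe of NLRC5 (NOD27 in the table) was detected on 2 arrays and not tested. Of the 9 interferon receptor and kinase genes tested, 4 rose and none fell, with a median of 0.28: the receptor chain IFNAR1 (1.01 ± 0.13), JAK1 (0.75 ± 0.09), JAK2 (0.62 ± 0.15) and TYK2 (0.56 ± 0.10). The fit with the set gave 1.98 for IFNAR1 (adjusted p = 0.0605, limma), 0.24 for JAK1 (0.837), 0.85 for JAK2 (0.576) and 0.78 for TYK2 (0.495), none past the threshold.

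Of the 35 interferon-stimulated genes, 15 rose and 3 fell over 45 h, with a median of 0.30, and 29 depended on time. TRIM22 rose by 1.58 ± 0.22 (adjusted p = 8.6e-06, limma), XAF1 by 1.35 ± 0.24 (0.000102) and SP100 by 1.23 ± 0.11 (3.14e-08), and GBP1 fell by 1.37 (SE 0.25, 0.000118). TRIM22 with the set as a factor kept its call (2.24, adjusted p = 0.0353, limma), whereas XAF1 (1.92, 0.0688), SP100 (1.67, 0.0837) and GBP1 (-2.02, 0.475) did not pass. By window, 29 of the 35 were higher at 12 to 21 h than at 0 to 9 h (median difference 0.78), 20 were lower at 24 to 33 h than at 12 to 21 h (median -0.46), and 18 did both, beside 15.9%, 3.38% and 0.950% of all probes tested. Of the class I probes, HLA-F and TAP2 ILMN_1777565 did both as well, whereas TAP2 ILMN_1759250 passed only the second test. Over all probes tested, these medians were 0.04 and -0.01.

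**Figure D5:**
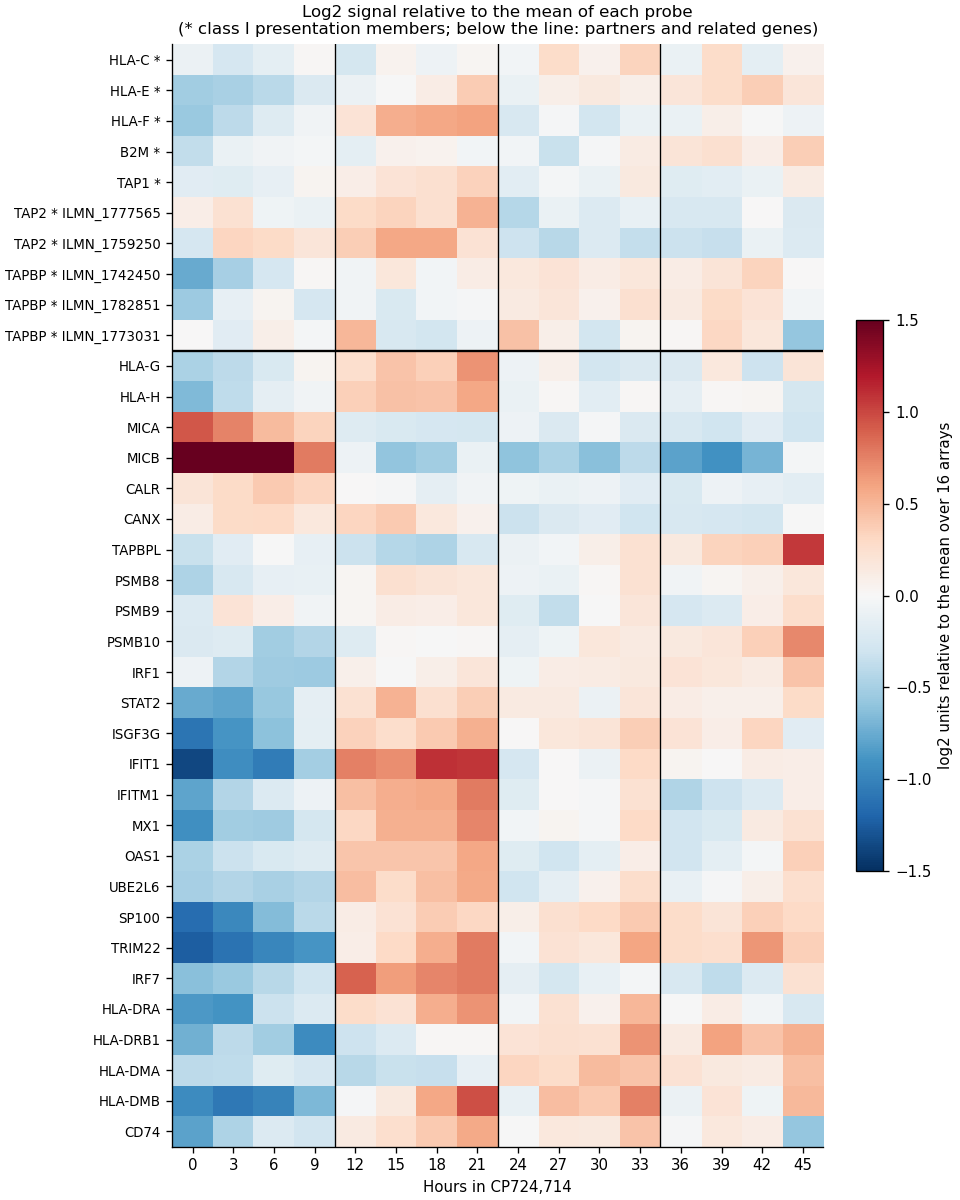
Log2 signal relative to the mean of each probe over the 16 arrays (columns, hours in CP724,714), with the 10 class I probes above the line and partner genes below it, and colours that stop at 1.5 log2 units, which MICB passed on the first arrays. HLA-E, HLA-F, HLA-G, HLA-H and IFIT1 were highest at 18 or 21 h. HLA-E and TAPBP ILMN_1742450 stayed above their mean on most later arrays.

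HLA class II genes present peptides from outside the cell and share regulators with class I. Of the 11 tested, 9 rose and none fell, with a median of 0.86, although the probe of CIITA, the class II coactivator, was detected on 2 arrays. HLA-DRB1 rose by 1.36 ± 0.16 (adjusted p = 1.32e-06, limma), HLA-DMB by 1.29 ± 0.27 (0.000512), HLA-DMA by 0.86 ± 0.14 (4.09e-05) and HLA-DRB6, a pseudogene, by 0.85 ± 0.17 (0.000418). The HLA-DRB genes are near copies, so their probes may share signal. HLA-DRA rose by 0.58 ± 0.17 (0.00852), and CD74, the invariant chain, gave 0.39 ± 0.16 (0.0528). HLA-DMB with the set as a factor kept its call (3.10, adjusted p = 0.0349, limma), whereas HLA-DRB1 (1.07, 0.475), HLA-DMA (0.98, 0.218), HLA-DRB6 (0.33, 0.877) and HLA-DRA (1.77, 0.207) did not pass.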

How the data were processed

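RNA of each culture was measured on an Illumina bead array, whose version the labels do not give. The deposited table holds a linear signal intensity per probe and array, which the authors had neither corrected for background nor normalized. The deposited detection p-value states how far a signal lies above the negative controls. The quantile normalization of the study's methods came after this table. No column of per-sample values was left unused.

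Signals were corrected and normalized with neqc of limma 3.58.1 in R 4.3.3 (negative controls inferred from the detection p-values, offset 16, quantile, log2), where the offset lowers the folds of dim signals. The filter kept the 16110 probes whose detection p was under 0.05 on 3 or more arrays. A cubic in hours was fitted with lmFit and eBayes (intensity trend), with the Benjamini-Hochberg adjustment over all probes tested and a threshold of 0.05. The fit was tested on simulated straight-line changes with independent noise. These held no bends and no steps between sets of arrays, so the test does not cover such courses. The number of arrays limits the precision.

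The genes, lists and sets of 4 arrays were chosen with earlier results of these data known. Named genes were every probe of the class I genes, up to 4 genes per list (the largest changes among those past the threshold, with detection on every array), direct partners, and the 5 probes most like B2M, TAP1 and TAPBP. HLA-G, HLA-H, HLA-DRA, CD74, PSMB5 and CIITA were named after their values were seen. Some genes of the lists are not reported here and were left out of their counts. Promoters came from RefSeq, and 7 of the 8 genes matched. Alternatives were an offset of 50, cyclic loess, median scaling, signals used without background correction (16 at the least), all probes or those detected on all 16 arrays, a straight line, a step after 21 h, the set as a factor, array weights, the probe of largest change, and each array left out in turn. Python 3.11.15 and matplotlib 3.10.9 drew the figures.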

Additional observations from a re-analysis of the deposited data

How the results depend on the processing

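The 5 class I probes with a linear trend became 1 with the set of 4 arrays as a factor, and that 1 was TAP1, which was not among the 5. The SE of each of the 5 was larger in that fit. It was 0.37 against 0.10 for HLA-E, 0.37 against 0.09 for B2M and 0.52 against 0.09 for TAPBP ILMN_1742450. The 57 genes of the lists with a trend became 12. TAP2 ILMN_1759250 had a linear change of -0.63 log2 units but gave 0.30 with a step after 21 h and 0.55 with the set as a factor, neither past the threshold. The cause was not tested. The step also put HLA-F (1.57) and TAP1 (0.67) past the threshold and took TAPBP ILMN_1742450 (0.56) and ILMN_1782851 (0.24) below it. Values with the step are linear terms scaled to 45 h, which leave the step out, and not changes seen over the course. TAP2 ILMN_1777565 passed with cyclic loess (-0.50) and without the 6, 9 or 21 h array. Leaving out each array in turn gave 5 to 6 probes with a trend, 6 to 7 that depended on time, 3 to 5 with a departure from a straight line and 46 to 61 list genes with a trend. It gave 4 to 5 probes higher at 12 to 21 h and 3 to 4 lower at 24 to 33 h, and between 0 and 3 pairs of probes that differed: 0 without the 0 h or the 45 h array and 1 without the 3 h array. Under the other alternatives the number of probes with a trend was 4 to 6. No paired analysis was possible because no time had a second array. Comparisons with HLA-B were not run. With 1 array per time point, a change on a single array cannot be told from its error, dim probes such as TAPBP ILMN_1773031 and HLA-C limit what could be seen, and B2M lies where the scale limits folds.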
